A study of Mus musculus with 11 samples.

Results

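The genes described here are the early growth response factors Egr1, Egr2 and Egr3 and their corepressors Nab1 and Nab2, followed through 4 groups of mouse T cells. The members are every probe set whose platform annotation names exactly 1 gene, that gene being 1 of the 5. This gave 9 of the 34958 probe sets with 1 symbol: 1 for Egr1, 2 for Egr2, 2 for Egr3, 3 for Nab1 and 1 for Nab2. T cells were purified from spleens of female mice aged 3 to 4 months, and each sample was hybridised to 1 one-colour Affymetrix array. The groups were crbn-/- (KO) cells activated for 12 hours with plate-bound anti-CD3 at 5 µg/ml and soluble anti-CD28 at 1 µg/ml (3 arrays), C57BL6 wild-type (WT) cells activated in the same way (2 arrays), KO cells collected naive (3 arrays) and WT cells collected naive (3 arrays). The labels do not say which exons of Crbn are deleted, whether the deletion is limited to T cells, or how long naive cells were cultured, and they list no cells kept in culture without stimulation. Levels are log2 RMA values, on which a difference of 1 is a change of 2-fold.

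EGR1, EGR2 and EGR3 are zinc finger transcription factors that bind the same GC-rich DNA element. Egr1 is a classic immediate-early gene, switched on through ERK, serum response factor (SRF) and its ternary complex partners, while Egr2 and Egr3 in T cells also depend on calcineurin and NFAT and are known for restraining T cell responses and for roles in anergy. NAB1 and NAB2 have no DNA-binding domain of their own. They bind a repression domain shared by EGR1, EGR2 and EGR3 but missing from EGR4, recruit chromatin-remodelling repressors, and NAB2 is known to be induced by EGR factors as a feedback brake.

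RefSeq promoter windows of GRCm38.p6, each reaching 250 bases before and 50 bases after an annotated start, were at hand for 3 of the 5 genes: 5 windows for Egr2 and 1 each for Nab1 and Nab2. They were searched on both strands for the CArG box bound by SRF, the EGR elements GCGTGGGCG and GCGGGGGCG, the CREB element TGACGTCA and the NFAT core GGAAA. The stretches below run 5′ to 3′ and end at the base before a start; they are shown because Egr2 had the largest rise of the 5 genes and Nab1 fell, and the capitals mark CArG boxes in Egr2 and EGR elements in Nab1.
Egr2, chr10:67537466-67537565, plus strand: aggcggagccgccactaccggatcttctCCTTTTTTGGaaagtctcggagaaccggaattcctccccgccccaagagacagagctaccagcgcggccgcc
Egr2, chr10:67537769-67537868, plus strand: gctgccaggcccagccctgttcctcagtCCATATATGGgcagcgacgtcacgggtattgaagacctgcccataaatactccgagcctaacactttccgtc
Nab1, chr1:52500449-52500598, minus strand: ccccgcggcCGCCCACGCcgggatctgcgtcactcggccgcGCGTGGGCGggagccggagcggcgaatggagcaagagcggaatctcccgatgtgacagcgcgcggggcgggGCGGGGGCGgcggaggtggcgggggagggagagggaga
Each Egr2 stretch held a CArG box between 72 and 63 bases before its start, a match found in 1.63% of all 32851 promoter windows. The stretches shown come from Egr2 windows with a box. Not every Egr2 window held one, and overlapping windows shared the second box. In the first stretch the box overlapped an NFAT core, a motif that 61.3% of windows hold. The Nab1 window held GCGTGGGCG at 2 places, 1 of them on the other strand, and GCGGGGGCG at 1 place; these motifs were found in 0.612% and 2.91% of windows. The CREB element, present in 1.79% of windows, was in none of the 7 windows. None of the 5 motifs was in the Nab2 window. A match is a run of letters and not a measured binding site.

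At 12 hours of activation the members had moved in different directions. Egr2 rose by more than 7-fold, Egr3 by about 3.5-fold and Nab2 by 1.44-fold. Nab1 fell to between 67.7% and 70.8% of its naive level, and Egr1 was not higher than in naive cells. By the brightest probe set of each gene, 5 of 5 genes passed in KO cells (3 higher, 2 lower) and 4 of 5 in WT cells (3 higher, 1 lower), at a limma p-value adjusted by the Benjamini-Hochberg method of under 0.05. Over all 18194 genes 42.7% passed in KO activation (20.5% higher, 22.2% lower) and 40.2% in WT activation (19.6% higher, 20.6% lower), so a pass by itself does not set a gene apart. Over all probe sets of the members the counts were 7 and 6 of 9, against 41.6% and 37.8% of the 34958 probe sets. In a bulk sample, fewer cells with a transcript and less transcript per cell cannot be told apart.

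**Figure D1:**
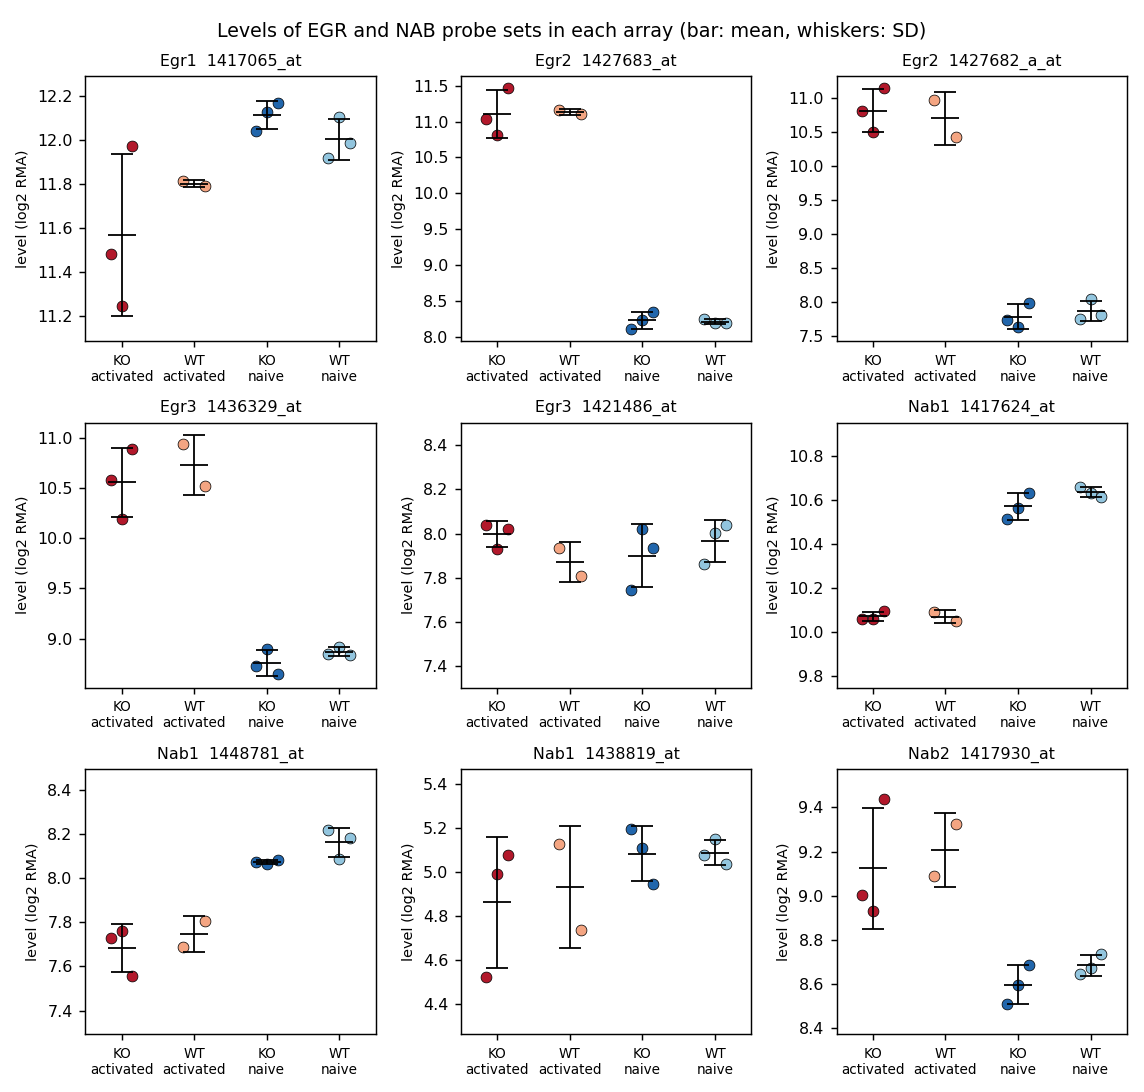
Levels (log2 RMA, vertical axis, a different range in each panel) of the 9 probe sets in each array, by group; points are arrays, bars are group means and whiskers are SD (n = 3, and n = 2 for WT activated). Both Egr2 probe sets and Egr3 1436329_at lie far higher in activated than in naive arrays of either genotype, while Egr1 lies highest in naive arrays.

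Egr1, by its only probe set 1417065_at, stood at 11.48, 11.25 and 11.97 in KO activated cells, 11.81 and 11.79 in WT activated cells, 12.04, 12.13 and 12.17 in KO naive cells and 11.92, 12.10 and 11.99 in WT naive cells. Every activated array lay below every naive array of its genotype. The fall was -0.54 log2 in KO cells (SE 0.14, 95% interval -0.84 to -0.24, limma adjusted p = 0.0057), where 68.6% of the naive level was left. In WT cells the difference was -0.20 (SE 0.16, 95% interval -0.54 to 0.14, limma adjusted p = 0.35) and did not pass. The difference between these responses was -0.34 (95% interval -0.79 to 0.11, limma adjusted p = 0.47), so a larger fall in KO cells was not shown. The KO activated mean of 11.57 ± 0.37 (SD, n = 3) had the widest spread of the 4 groups, and without replicate 2 the KO fall was -0.38 (limma adjusted p = 0.028). The order of the group means was KO naive (12.11), WT naive (12.00), WT activated (11.80) and KO activated (11.57), in which no neighbours differed past the threshold, whereas KO naive and KO activated, at its ends, did.

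Egr2 had the largest change of the 5 genes. Its brighter probe set 1427683_at stood at 11.04, 10.81 and 11.46 in KO activated cells and 11.17 and 11.10 in WT activated cells, against 8.11, 8.23 and 8.34 in KO naive cells and 8.25, 8.19 and 8.19 in WT naive cells. Activated and naive arrays were separated by more than 2 log2 units in both genotypes. The rise was 2.87 log2 in KO cells (SE 0.13, 7.33-fold, limma adjusted p = 1.9e-09) and 2.93 in WT cells (SE 0.15, 7.60-fold, limma adjusted p = 1.1e-08). Probe set 1427682_a_at gave 10.80, 10.50 and 11.14 in KO activated and 10.97 and 10.42 in WT activated cells, against 7.73, 7.63 and 7.99 in KO naive and 7.75, 8.04 and 7.80 in WT naive cells. It rose by 3.03 in KO (SE 0.17, limma adjusted p = 1.1e-08) and 2.83 in WT cells (SE 0.19, limma adjusted p = 1.1e-07), within the interval of the other probe set. Among all 34958 probe sets, ordered by the size of their rise, the brighter Egr2 probe set was number 56 in KO and number 30 in WT activation. A rise of at least 2-fold that passed was seen for 5.95% of probe sets in KO and 3.42% in WT activation.

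Egr3 gave a different answer by each of its probe sets. The brighter one, 1436329_at, stood at 10.58, 10.19 and 10.88 in KO activated cells and 10.94 and 10.52 in WT activated cells, against 8.72, 8.90 and 8.65 in KO naive cells and 8.85, 8.92 and 8.84 in WT naive cells, with no overlap between states. It rose by 1.80 log2 in KO cells (SE 0.15, 3.47-fold, limma adjusted p = 3.8e-07) and by 1.86 in WT cells (SE 0.17, 3.63-fold, limma adjusted p = 1.4e-06). The other, 1421486_at, lay between 7.74 and 8.04 in all 11 arrays, with overlapping groups. Its differences were 0.10 in KO (95% interval -0.09 to 0.29, limma adjusted p = 0.42) and -0.10 in WT cells (95% interval -0.31 to 0.11, limma adjusted p = 0.48). The rise of Egr3 therefore rests on 1436329_at alone.

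Nab1 encodes the first of the 2 corepressors and was lower in activated cells. Probe set 1417624_at stood at 10.06, 10.06 and 10.10 in KO activated and 10.09 and 10.05 in WT activated cells, against 10.51, 10.56 and 10.63 in KO naive and 10.66, 10.63 and 10.61 in WT naive cells. The groups of a state were tightly spaced and the states did not overlap. The fall was -0.50 in KO cells (SE 0.065, limma adjusted p = 2.3e-05) and -0.56 in WT cells (SE 0.072, limma adjusted p = 3.1e-05). Probe set 1448781_at fell too, with differences of -0.39 in KO (limma adjusted p = 0.00077) and -0.41 in WT cells (limma adjusted p = 0.0014). The third, 1438819_at, ranged from 4.52 to 5.19, where lower quartiles of the arrays lay between 4.57 and 4.68, and did not pass in KO (-0.22, limma adjusted p = 0.24) or WT cells (-0.16, limma adjusted p = 0.47).

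Nab2, the EGR-inducible corepressor, went the other way. Its probe set 1417930_at stood at 9.004, 8.930 and 9.438 in KO activated and 9.088 and 9.325 in WT activated cells, against 8.51, 8.60 and 8.69 in KO naive and 8.64, 8.67 and 8.74 in WT naive cells. All activated arrays were above all naive arrays, by a smaller margin than for Egr2 or Egr3. The rise was 0.53 log2 in KO cells (SE 0.12, 1.44-fold, limma adjusted p = 0.0024) and 0.52 in WT cells (SE 0.13, 1.44-fold, limma adjusted p = 0.0066). Without WT activated replicate 2 the WT rise was 0.40 with a limma adjusted p of 0.089.

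**Figure D2:**
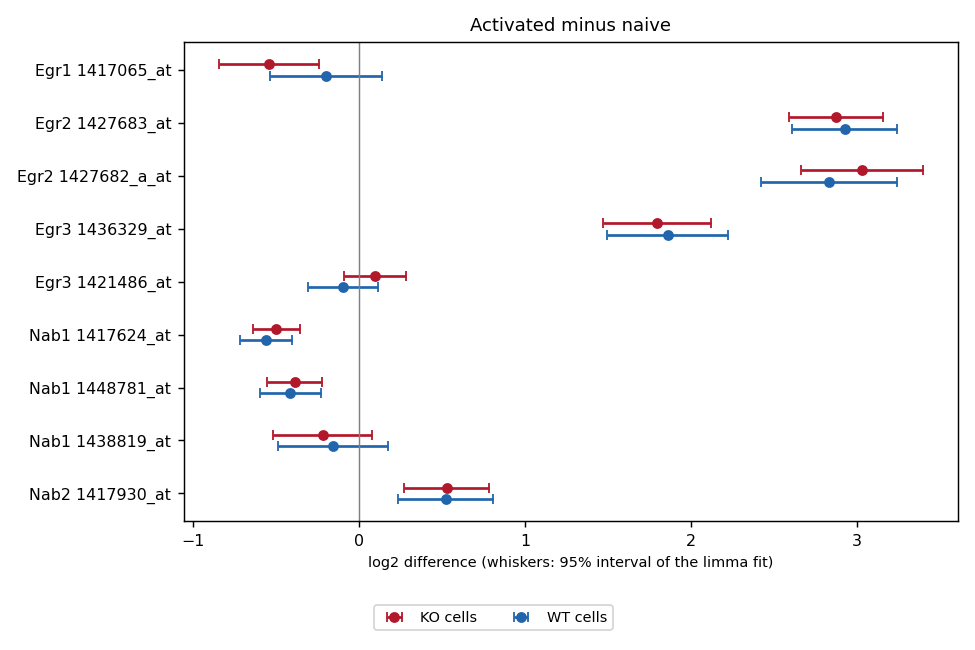
Activated minus naive difference (log2, horizontal axis) of the 9 probe sets in KO (red, upper) and WT cells (blue, lower), with 95% intervals of the limma fit. Both Egr2 probe sets lie near 3, Egr3 1436329_at near 1.8, Nab2 near 0.5 and all 3 Nab1 probe sets below 0, those of 1438819_at with intervals that cross 0, with overlapping intervals of the genotypes throughout.

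Whether cereblon affects these genes was asked within each state. The deleted gene was lower in the arrays labelled KO: Crbn (1423095_s_at) stood at 8.68 ± 0.09 (SD, n = 3) in KO activated and 9.59 ± 0.17 (SD, n = 2) in WT activated cells, and at 8.99 ± 0.08 in KO naive and 10.12 ± 0.08 in WT naive cells (SD, n = 3 each). The activated difference of Crbn was -0.90 (limma adjusted p = 0.0039). With only the compared arrays it did not pass (limma adjusted p = 0.079), and without WT activated replicate 1 it was -0.78. Of the other Crbn probe sets, 1423094_at passed in activated cells (-0.91, limma adjusted p = 0.0034) and 1455734_at did not (-0.56, limma adjusted p = 0.073). Both passed in naive cells (-1.09, limma adjusted p = 7.2e-05, and -0.76, limma adjusted p = 0.0022). Where the Crbn probe sets lie relative to the deleted part of the gene is not given in the labels. Of the 9 EGR and NAB probe sets 0 passed between genotypes in activated cells (lowest limma adjusted p = 0.77) and 0 in naive cells (lowest limma adjusted p = 0.62), against 0.0629% and 0.157% of all probe sets. At an unadjusted limma p under 0.05 the count over the members was also 0 in both states. Over all 34958 probe sets it was 2766 in activated and 5098 in naive cells. At these shares a count of 0 among 9 does not set the members apart. The differences of the 9 probe sets, KO minus WT, ran from -0.23 to 0.13 log2 in activated and from -0.11 to 0.11 in naive cells.

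How large a genotype difference could have been is given by the intervals. For Egr2 (1427683_at) the KO minus WT difference was -0.03 in activated cells (95% interval -0.35 to 0.28) and 0.02 in naive cells (-0.26 to 0.30). For Egr3 (1436329_at) it was -0.18 in activated (-0.54 to 0.19) and -0.11 in naive cells (-0.44 to 0.21). Nab1 (1417624_at), the most tightly measured, gave 0.0010 in activated (-0.16 to 0.16) and -0.06 in naive cells (-0.20 to 0.08). Nab2 gave -0.08 in activated (-0.37 to 0.20) and -0.09 in naive cells (-0.34 to 0.17). Egr1 gave -0.23 in activated (-0.57 to 0.10) and 0.11 in naive cells (-0.19 to 0.41). Over the 9 probe sets the intervals reached 1.48-fold lower and 1.44-fold higher in activated KO cells, so differences of that size or smaller may have gone undetected in the least precise of them.

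The responses of both genotypes were also set against each other directly. The KO response minus the WT response was -0.05 for Egr2 (1427683_at, 95% interval -0.48 to 0.37), -0.06 for Egr3 (1436329_at, -0.55 to 0.42), 0.06 for Nab1 (1417624_at, -0.14 to 0.27) and 0.0044 for Nab2 (-0.38 to 0.39). Of the 9 probe sets 0 passed the test of this interaction in limma, 0 had an unadjusted p under 0.05, and the lowest adjusted p was 0.47, that of Egr1. Over all 34958 probe sets 0% passed, and 4983 had an unadjusted p under 0.05.

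**Figure D3:**
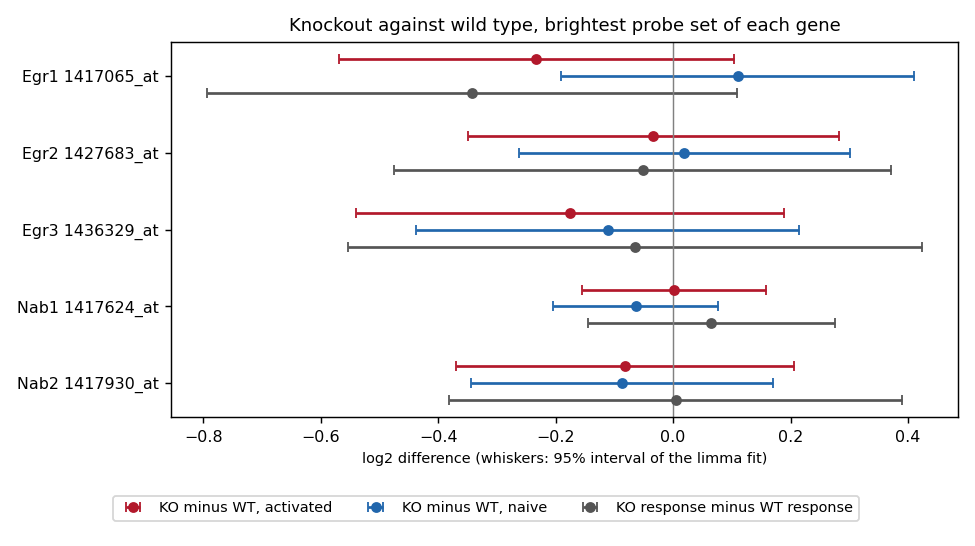
KO minus WT difference (log2, horizontal axis) in activated cells (red), in naive cells (blue) and between the responses (grey) for the brightest probe set of each gene, with 95% intervals of the limma fit. All 15 intervals include 0, and those of Nab1 are the narrowest.

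Within the activated KO group 5 of the 9 probe sets shared an order of arrays. In Egr1, both Egr2 probe sets, Egr3 1436329_at and Nab2, replicate 2 was lowest and replicate 3 highest, and replicate 3 exceeded replicate 2 by 0.72 log2 for Egr1, 0.66 and 0.64 for Egr2, 0.69 for Egr3 and 0.51 for Nab2. The other four did not hold it: Nab1 1417624_at differed by 0.04 between the same arrays, Nab1 1438819_at and Egr3 1421486_at by 0.09 each, and Nab1 1448781_at ran the opposite way (-0.20). This order, noticed after the values were seen, was held by 17.4% of all probe sets, and with a gap of at least 0.5 by 0.483%. That cut lies just under the smallest of the 5 gaps (0.51, Nab2), so all 5 meet it, and 2 of the 5 probe sets are of Egr2. The 0.483% therefore does not measure how unusual the shared order is. In the WT activated pair Egr3 1436329_at was 0.42 higher in replicate 1 than in replicate 2, Egr2 1427682_a_at was 0.56 higher, and Nab2 was 0.24 lower (-0.24), so that the members did not share an order there. The KO activated arrays also differed in markers of other cells, whose mean level in replicates 1, 2 and 3 was 7.97, 7.54 and 7.61 for B cells, 6.75, 6.11 and 5.84 for erythroid cells and 5.69, 4.96 and 5.03 for neutrophils. Each of these lists was highest in replicate 1, and their part in the order was not tested.

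**Figure D4:**
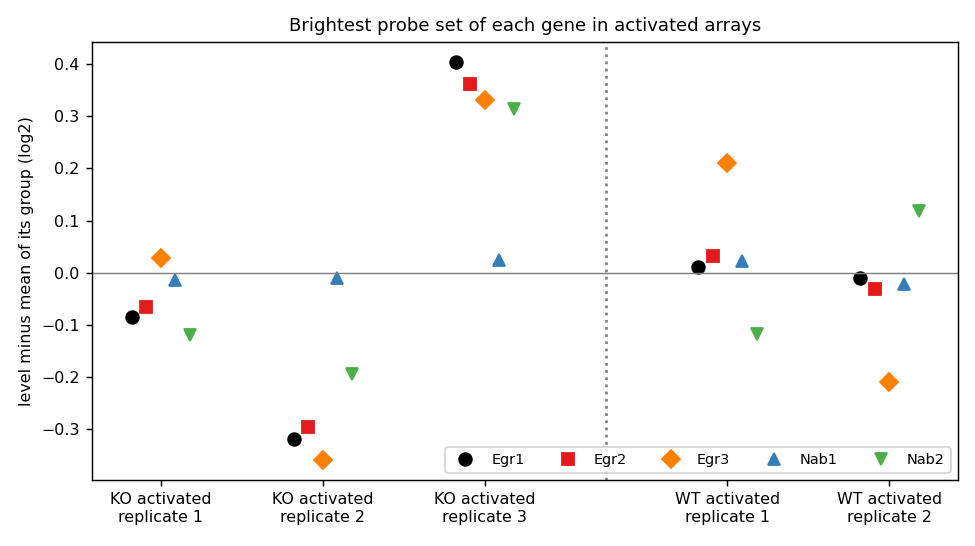
Level minus group mean (log2, vertical axis) of the brightest probe set of each gene in the 3 KO activated and 2 WT activated arrays. Egr1, Egr2, Egr3 and Nab2 lie together at or above 0.31 in KO activated replicate 3 and below 0 in replicate 2, while Nab1 stays within 0.03 of its mean.

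The setting of these genes was read from 5 further lists, each gene given by its brightest probe set. Of the other immediate-early genes, those that respond to stimulation without new protein synthesis, 5 of 16 rose and 10 fell in KO activation (median -1.54, against -0.03 over all genes), and 4 rose and 10 fell in WT activation (median -1.26, against 0.06). Over all genes 20.5% rose and 22.2% fell in KO activation, and 19.6% rose and 20.6% fell in WT activation. The AP-1 gene Fos fell, with differences of -4.08 log2 in KO and -3.70 in WT cells, as did the phosphatase gene Dusp1 with -4.76 in KO and -4.61 in WT cells. The orphan nuclear receptor gene Nr4a3 rose by 3.15 in KO and 3.09 in WT cells. Fos stood between 8.65 and 9.42 in KO activated and at 9.46 and 9.29 in WT activated arrays, against 13.11, 13.09 and 13.12 in KO naive and 13.07, 13.08 and 13.07 in WT naive arrays. In KO cells Egr1 was lower too, but its difference of -0.54 was far smaller than those of Fos and Dusp1. Its WT difference (-0.20) did not pass. Egr2 and Egr3 rose, as Nr4a3 did. Between genotypes 0 of the 16 passed when all arrays were used with equal weight. The 1 of smallest p in naive cells was the stress-inducible gene Ier3 (-0.55, limma adjusted p = 0.10), whose naive difference passed with array quality weights (-0.48, limma adjusted p = 0.021) and without either WT activated array (-0.55, limma adjusted p = 0.038 each). The interaction of Ier3 was 0.88 (limma adjusted p = 0.18), and 1.17 (limma adjusted p = 0.031) without WT activated replicate 2.

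Neither of the family relatives outside the 5 genes passed on activation. Egr4 (1449977_at), the EGR gene without the NAB-binding domain, stood between 6.52 and 7.01 in all arrays, with differences of -0.04 in KO (limma adjusted p = 0.79) and 0.17 in WT activation (limma adjusted p = 0.31). Wt1, which encodes a related zinc finger factor, averaged 4.34 ± 0.10 (SD, n = 3) in KO activated and 4.41 ± 0.09 (SD, n = 2) in WT activated cells, against 4.42 ± 0.04 in KO naive and 4.38 ± 0.05 in WT naive cells (SD, n = 3 each), below the lowest lower quartile of the arrays. Its limma adjusted p was 0.45 in KO and 0.85 in WT activation.

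Genes reported as targets of EGR2 or EGR3 in T cells were mostly changed by activation, in both directions. Of 20 genes 13 rose and 6 fell in KO cells (median 0.85), and 12 rose and 6 fell in WT cells (median 1.04). Over all genes 20.5% rose and 22.2% fell in KO cells (median -0.03), and 19.6% rose and 20.6% fell in WT cells (median 0.06). The growth factor gene Il2, which EGR2 is reported to restrain, rose by 5.47 log2 in KO (SE 0.20) and 4.65 in WT cells (SE 0.22), and the chemokine gene Ccl1 rose by 4.34 in KO and 4.67 in WT cells. Sema7a, a membrane semaphorin gene, rose by 3.55 in KO and 3.33 in WT cells, and the costimulatory receptor gene Tnfrsf9 rose by 3.01 in KO and 2.98 in WT cells. Further genes of the list, singled out with their values known, moved both ways. Crtam, which encodes an adhesion receptor, rose by 2.67 in KO and 2.63 in WT cells, the inhibitory receptor gene Lag3 rose by 2.18 in KO and 1.87 in WT cells, and the ubiquitin ligase gene Cblb rose by 0.97 in KO and 0.91 in WT cells. The diacylglycerol kinase gene Dgka fell to 10.02 ± 0.24 in KO activated cells, against 12.61 ± 0.05 in KO naive cells (SD, n = 3 each), a difference of -2.59 (SE 0.12), and its difference was -1.97 in WT cells. The related kinase gene Dgkz fell (-0.65 in both genotypes), as did the ubiquitin ligase genes Itch (-0.43 in both) and Rnf128 (-0.37 in KO and -0.62 in WT cells). Rnf128 was dim, with means of 4.58 in KO activated and 4.31 in WT activated cells. Lower quartiles of the arrays lay between 4.57 and 4.68, so its fall is less certain. Between genotypes 0 of the 20 passed in either state, the smallest p in activated cells being that of Dgka (-0.58, limma adjusted p = 0.22), and 0 passed the interaction, where Dgka stood at -0.63 (limma adjusted p = 0.22).

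**Figure D5:**
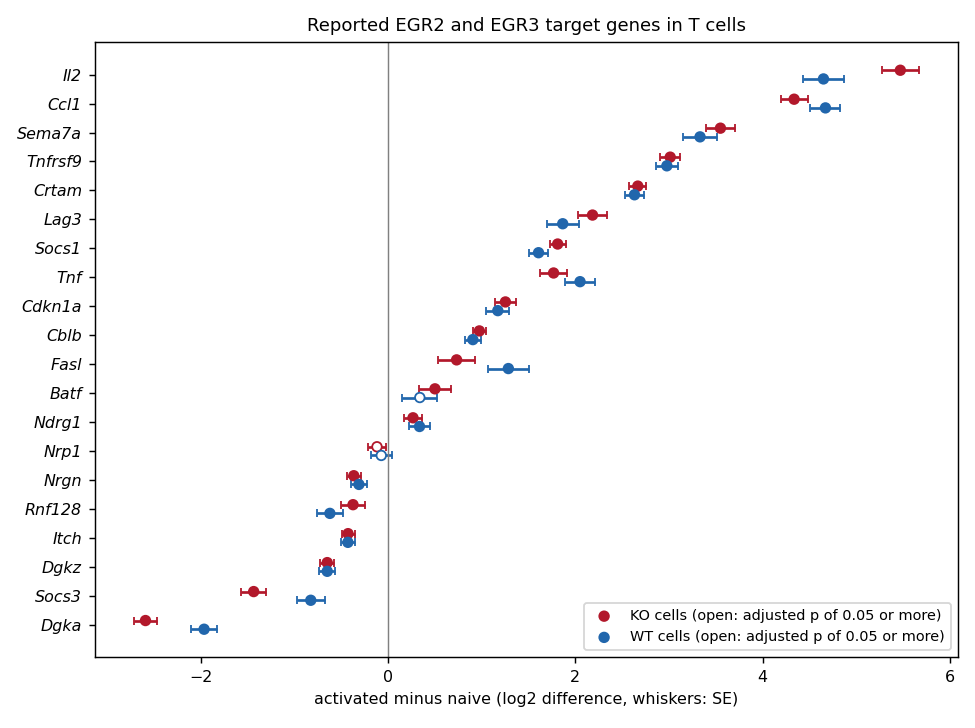
Activated minus naive difference (log2, horizontal axis, whiskers are SE) of 20 genes reported as EGR2 or EGR3 targets in T cells, in KO (red, upper) and WT cells (blue, lower), ordered by the KO value; open points did not pass. Il2 and Ccl1 have the largest rises and Dgka the largest fall in both genotypes.

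Genes of the signalling steps that switch EGR genes on were mostly lower after activation. Of 13 measured genes of the ERK cascade, SRF with its partners, calcineurin and NFAT, 1 rose and 11 fell in KO cells (median -0.59), and 0 rose and 9 fell in WT cells (median -0.43). The shares over all genes were 20.5% up and 22.2% down in KO cells (median -0.03), and 19.6% up and 20.6% down in WT cells (median 0.06). The calcineurin subunit gene Ppp3ca fell, by a difference of -1.47 in KO and -1.33 in WT cells. The NFAT genes Nfatc2 (-1.11 in KO and -1.36 in WT cells) and Nfatc3 (-0.85 and -0.78) fell as well. Rasgrp1, which encodes a Ras activator of T cells, fell by a difference of -1.23 in KO and -0.78 in WT cells. Srf, singled out with its values known, had differences of -0.69 in KO and -0.70 in WT cells, both past the threshold. Between genotypes 0 of the 13 passed in either state.

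Genes of the NuRD remodelling complex, which NAB2 is reported to recruit through CHD4, were split. Hcfc1, which encodes a reported EGR2 partner, did not pass in KO (-0.02, limma adjusted p = 0.89) or WT cells (-0.16, limma adjusted p = 0.16). Of the 14 genes, Hcfc1 included, 6 rose and 5 fell in KO cells (median 0.01), and 4 rose and 5 fell in WT cells (median -0.08). Among all genes 20.5% rose and 22.2% fell in KO cells (median -0.03), and 19.6% rose and 20.6% fell in WT cells (median 0.06). The helicase gene Chd3 fell (-1.75 in KO and -1.54 in WT cells), as did Mta3, which encodes a NuRD subunit (-1.62 in KO and -1.41 in WT cells). Mbd3, encoding another subunit, rose by 0.92 in KO and 0.62 in WT cells, and its WT difference was 0.31 (limma adjusted p = 0.054) without WT activated replicate 2. The deacetylase gene Hdac2 rose by 0.75 in KO and 0.50 in WT cells, and Chd4, singled out with its values known, rose by 0.22 in KO and 0.43 in WT cells. Between genotypes 0 of the 14 passed in either state.

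Genes with the most similar pattern were found by the root mean square difference, over the 11 arrays, between log2 values centred on each gene's mean. Nearest to Egr2 were Spry1, an inhibitor of receptor signalling to ERK (0.091 log2), Tnfrsf9 (0.105) and Gramd1b (0.119). Nearest to Egr3 were Sh3rf1 (0.149), the kinase gene Map2k3 (0.161) and Snord89 (0.178). Nearest to Egr1 were Vsir, which encodes an inhibitory T cell checkpoint protein (0.061), Lzts1 (0.086) and Gm15506 (0.116). Nearest to Nab1 were the RNA editing gene Adar (0.045), Fkbp15 (0.046) and C2cd3 (0.046), and nearest to Nab2 were Fads6 (0.054), Utf1 (0.072) and the T cell receptor kinase gene Zap70 (0.079). Among the members themselves Egr2 and Egr3 differed by 0.559 and Egr1 and Nab1 by 0.197.

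All 6 measured T cell markers of 8 lay above the median of every array. Their mean level was 11.19 to 11.32 in KO activated, 11.39 to 11.46 in WT activated, 11.83 to 11.88 in KO naive and 11.75 to 11.91 in WT naive arrays. B cell markers, 7 of 8 measured, were lower after activation, at 7.54 to 7.97 in KO activated and 7.08 to 7.55 in WT activated arrays, against 8.29 to 9.10 in KO naive and 8.13 to 8.35 in WT naive arrays. The 7 measured macrophage markers averaged 5.99 to 6.24 in KO activated and 6.09 to 6.17 in WT activated arrays, against 6.68 to 7.18 in KO naive and 6.64 to 6.82 in WT naive arrays. The 5 measured erythroid markers averaged 5.84 to 6.75 in KO activated and 6.36 to 6.50 in WT activated arrays, against 6.24 to 7.68 in KO naive and 7.29 to 8.77 in WT naive arrays. Of the 5 measured neutrophil markers the averages were 4.96 to 5.69 in KO activated and 5.16 in both WT activated arrays, against 5.59 to 7.34 in KO naive and 5.85 to 6.12 in WT naive arrays, with KO naive replicate 1 the highest. The 4 measured NK cell markers averaged 7.72 to 7.91 in KO activated and 7.62 to 7.72 in WT activated arrays, and 7.81 to 8.28 in KO naive and 7.66 to 7.69 in WT naive arrays. Every KO naive array lay above every WT naive array. In activated cells the KO arrays were also above the WT arrays, but the lowest KO array (7.721) and the highest WT array (7.72) were nearly level. The 5 measured dendritic cell markers averaged 5.70 to 5.84 in KO activated and 5.69 to 5.87 in WT activated arrays, against 6.06 to 6.20 in KO naive and 6.01 to 6.08 in WT naive arrays. These cells' part in the EGR and NAB changes was not tested.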

How the data were processed

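The deposited table held log2 levels of 45101 probe sets for 11 arrays and was not normalized further; per the submitters' processing notes the authors used GCOS, RMA and Partek and give no versions. Arrays are biological replicates per the labels. Each p-value sets a difference of group means against a spread between arrays that was pooled over the 4 groups. Of the probe sets, 34958 carried 1 gene symbol in the platform annotation, 932 several and 9211 none. All 34958 were fitted at once (limma 3.58.1, R 4.3.3), with group means, moderated variances (prior degrees of freedom 5.74, residual 7) and Benjamini-Hochberg adjustment over all of them in each of 5 comparisons. For counts of genes, the probe set with the highest mean stood for its gene. Named were all members, up to 4 genes of largest change per list, or the 1 of smallest p, and 3 nearest genes per member. The fit was run on simulated data with independent noise. These held no structure shared by an array or a replicate number, so they do not show how the fit handles it. Median standard errors were 0.091 log2 in KO activation and naive genotype comparisons, 0.102 in WT activation and activated genotype comparisons and 0.137 in the interaction; the number of arrays limits precision. Alternatives covered features tested, dim probe sets, variance model, arrays fitted, weights, normalization, centring, replicate number and each array left out. Members and lists were chosen with earlier results of these data known. Figures used Python 3.11.15 and matplotlib 3.10.9.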

Additional observations from a re-analysis of the deposited data

How the results depend on the processing

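The number of the 5 genes that passed was 5 in KO activation and 0 between genotypes and in the interaction under all alternatives; in WT activation it was 4, and 3 without WT activated replicate 2, where Nab2 did not pass. With 1 array of WT activated left out, the lone array is assumed to vary like the other groups. Leaving out 1 array at a time gave -0.75 to -0.38 for Egr1 and 2.69 to 3.02 for Egr2 1427683_at in KO activation. Sign changes were seen only in values that did not pass. Quantile normalization again gave 0.0011 for Egr3 1421486_at in WT activation, -0.025 for Nab1 1417624_at in activated genotype and -0.082 for the interaction of Nab2. Centring on the median gave -0.0029 for Egr2 1427683_at in naive genotype. Leaving out 1 array at a time, genotype differences in activated cells ran from -0.43 to -0.073 for Egr1, -0.21 to 0.11 for Egr2 1427683_at, -0.39 to 0.034 for Egr3 1436329_at, -0.021 to 0.023 for Nab1 1417624_at and -0.24 to 0.036 for Nab2; in naive cells from -0.040 to 0.079 for Egr2 and -0.011 to 0.20 for Egr4; interactions from -0.54 to -0.18 for Egr1, -0.23 to 0.096 for Egr2, -0.27 to 0.15 for Egr3 and -0.15 to 0.12 for Nab2; and WT activation of Nab1 1438819_at from -0.35 to 0.038. Over all probe sets, 22 passed between activated genotypes, and 3 with only the compared arrays, 6 with array quality weights and 1 to 36 with an array left out. In naive cells 55 passed, and 14, 702 and 21 to 521 under the same settings. In the interaction 0 passed, 1 with array weights, 1 with a variance trend and 0 to 10 with an array left out. Same-numbered arrays had correlated deviations of 0.231, 0.062 and 0.178 in KO and -0.282 and -0.183 in WT cells. The WT activated group held 2 arrays, whose deviations mirror each other, so the WT correlations say little about pairing. The numbers were not taken as pairs, although 6 of 6 KO arrays correlated best with their own number, a hint from the data. A replicate block, which joined same-numbered arrays of both genotypes, gave 344 calls in naive cells and 49 in the interaction. None was the brightest probe set of a member. Under it Nab1 1417624_at was at -0.010 in activated genotype and Nab2 at -0.072 in the interaction. Pairing within a genotype was not fitted, so its effect on the members is not known. The causes were not tested.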

Other observations

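The order of the KO activated arrays that Egr1, Egr2, Egr3 and Nab2 shared, replicate 2 lowest and replicate 3 highest, was also held by 10 of the 16 other immediate-early genes, against 17.4% of all probe sets. Among them the nuclear receptor gene Nr4a1 stood at 11.32, 10.94 and 11.86 in replicates 1, 2 and 3, Nr4a2 at 10.17, 9.96 and 10.71, and Nr4a3 at 11.57, 11.42 and 12.03. In 3 of the 16 the order was reversed: Jun stood at 10.30, 10.73 and 10.14, Fosb at 6.30, 6.34 and 6.17, and Klf6 at 9.06, 9.09 and 8.70. These genes were singled out after their values were seen, and no test was made.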
